A study of Homo sapiens with 6 samples.

Results

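The genes described here are 49 named members of the autophagy machinery, from the receptors that pick up cargo to the factors that fuse autophagosomes with lysosomes, out of 58735 genes in the deposited table. They were matched by gene name, and all 49 were found. Human AZ-521 cells, labelled as wild type, had been exposed for 48 h to 10 µM platycodon D (PD), a saponin of the balloon flower root, in 3 samples, and to its solvent DMSO alone for 48 h in 3 samples. The study asked how PD acts on gastric cancer cells. Reads assigned to genes summed to between 14915538 and 16341687 per sample. The labels do not say whether the samples of a group were grown as separate cultures. All p-values therefore refer to the variation among these 3 samples per group, some or all of which may be technical. AZ-521 is labelled as a gastric cancer line, and cell banks list it as a misidentified line of duodenal origin. All 4 epithelial and all 6 gastric epithelial marker genes examined stayed below 1 FPKM in every sample, with KRT18, TFF1, TFF2 and GKN1 at 0, and 3 of 4 intestinal markers were below 1 FPKM as well. Among 3 mesenchymal markers, COL1A1 and DCN were below 1 FPKM, and VIM, which encodes vimentin, was at 72.4 to 89.0 FPKM in PD and 95.6 to 107 FPKM in DMSO and fell (log2 fold change -0.39, adjusted p = 0.0367). Its part in the autophagy results was not tested. FPKM relates fragments to gene length and to library size. The deposited gene lengths exceed the longest transcript by an unequal factor (7654 and 2986 bases for SQSTM1, 13740 and 12698 for EPG5). Levels, shares and ratios that set different genes side by side are therefore approximate.

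Autophagy encloses cytoplasm, damaged organelles and protein aggregates in a double membrane and delivers them to lysosomes for breakdown. The ULK kinase complex starts the process, the class III PI3-kinase complex marks the site with the lipid PI3P, WIPI proteins read that mark, and ATG2, ATG9, VMP1 and TMEM41B supply and rearrange lipids for the growing membrane. Ubiquitin-like ATG8 proteins (the LC3 and GABARAP families) are trimmed by ATG4 proteases and coupled to the membrane by a conjugation machinery, receptors such as SQSTM1 tie cargo to them, and tethers and SNARE proteins drive fusion with the lysosome. Several ATG8 proteins and receptors are themselves consumed by autophagy, and RNA levels do not measure the rate of the process.

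Autophagy genes were mostly higher in PD samples. Of the 49 members, 23 rose, 2 fell and 24 did not pass the test, a limma fit on log2(FPKM + 1) in which p-values were adjusted over all 13579 genes tested by the Benjamini-Hochberg method with a threshold of 0.05. The members that rose were 46.9% and those that fell 4.08% of the list, against 14.3% and 12.7% of all genes tested. All 49 members passed the filter on low values, and each was at 1.18 FPKM or more in every sample. The members' median log2 fold change was 0.33, beside 0.00 over all genes tested, and 39 members had a positive value. The PD samples lay above every DMSO sample for 30 members, below them for 3, and overlapped with them for 16, where 22.5% of all genes were separate in the first way and 21.9% in the second. Only SQSTM1, BNIP3, WIPI1 and GABARAPL1 rose at least 2-fold (4 members, against 2.84% of all genes), and 0 of 49 fell at least 2-fold, as 0.979% of all genes did. Fold changes on this scale understate the change of genes with low FPKM. The origin of the scaling between samples in the deposited values is not known, and when every sample was scaled to the same total FPKM, the median was 0.18 for the members and -0.13 for all genes. At that scaling 20 members rose and 4 fell, beside 9.38% and 23.3% of all genes. A bulk value cannot tell fewer cells of a kind from less RNA per cell.

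**Figure D1:**
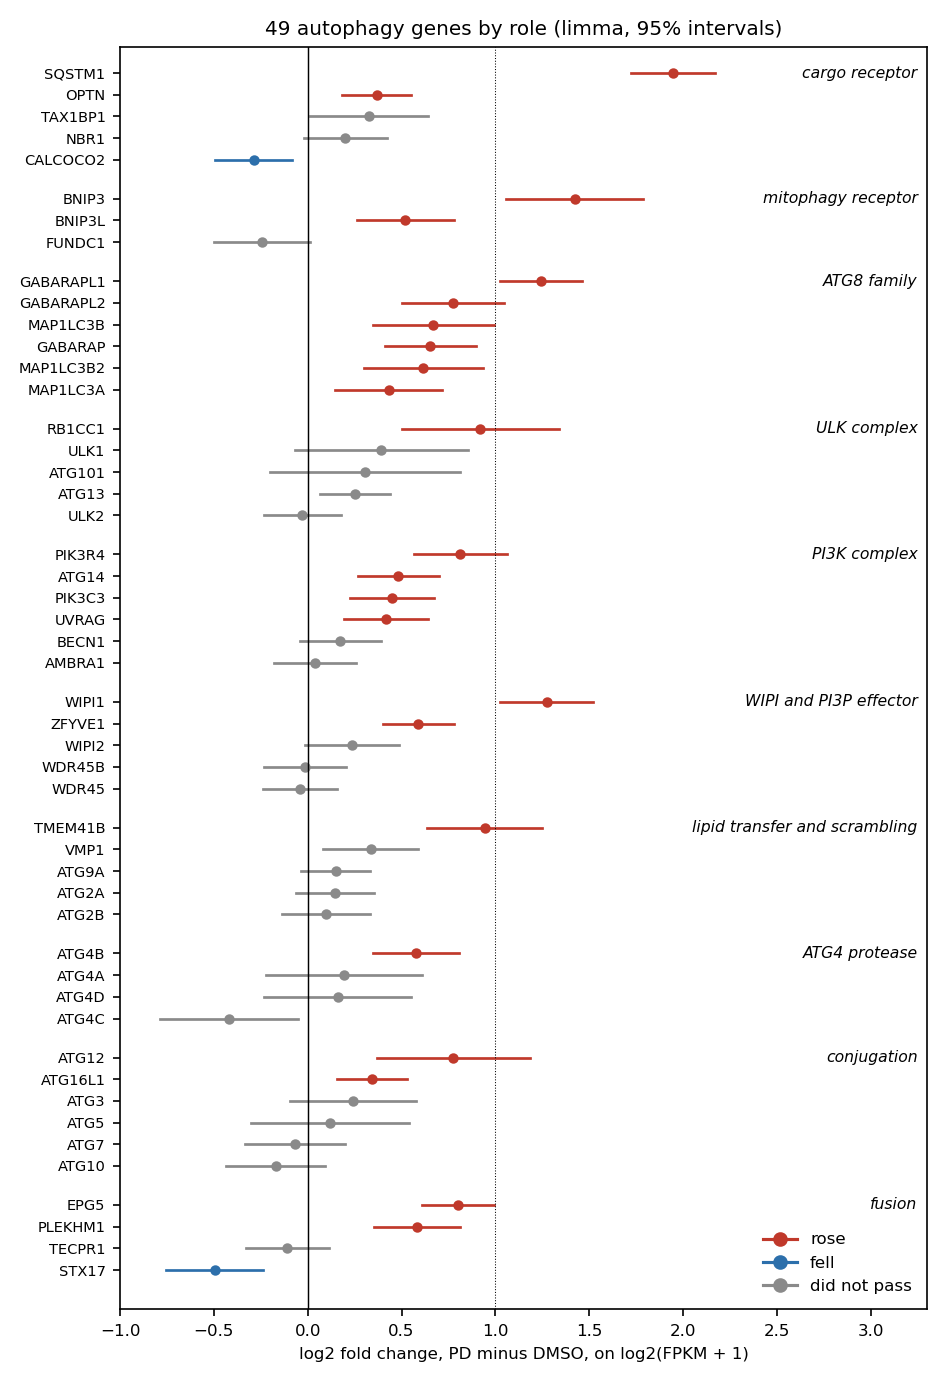
Log2 fold change of each of the 49 autophagy genes, PD minus DMSO, on the log2(FPKM + 1) scale, grouped by role, with 95% intervals from the limma fit (n = 3 per group). Red points rose, blue points fell and grey points did not pass the adjusted p of 0.05, and the dotted line marks a 2-fold rise, which SQSTM1, BNIP3, WIPI1 and GABARAPL1 exceeded.

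**Figure D2:**
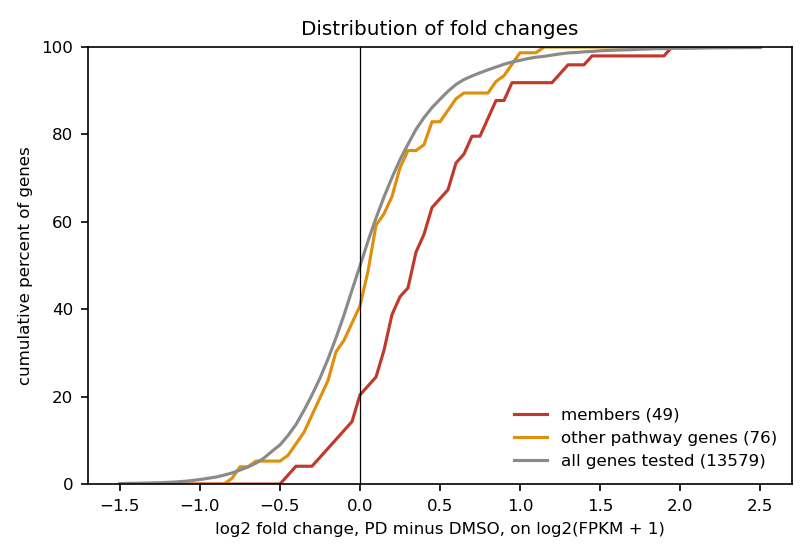
Cumulative percent of genes (y axis) at or below each log2 fold change, PD minus DMSO (x axis), for the 49 autophagy genes, 76 other tested genes of the pathway and all 13579 genes tested. The autophagy genes lie to the right with a median of 0.33, while the medians of the other pathway genes and of all genes were 0.05 and 0.00.

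Sequences just upstream of the start sites are printed for the 4 members that rose at least 2-fold and for ATG14, one of the 2 rising members with an E-box there, to show what the windows hold. RefSeq promoter windows (GRCh38.p14, from 250 bases before to 50 after the start site) were at hand for 41 of the 49 members, 18 of them rising, and the 250 bases before the start are given 5′ to 3′ on the gene's strand. SQSTM1 has 3 windows, of which the one furthest downstream is shown. Capitals mark matches on either strand to CACGTG (the E-box, which TFEB, TFE3 and MITF bind), TCACGTGA (a longer form of it, as in the CLEAR element), TGACNNNGC (the antioxidant response element, bound by NRF2), ACGTG or GCGTG (the core of the hypoxia response element, the first of which lies within every CACGTG) and TGTTTAC (bound by FOXO factors). The windows lie at chr5:179820655-179820904 (plus strand) for SQSTM1, chr10:131981924-131982173 (minus) for BNIP3, chr17:68457497-68457746 (minus) for WIPI1, chr12:10212627-10212876 (plus) for GABARAPL1 and chr14:55411831-55412080 (minus) for ATG14.
SQSTM1: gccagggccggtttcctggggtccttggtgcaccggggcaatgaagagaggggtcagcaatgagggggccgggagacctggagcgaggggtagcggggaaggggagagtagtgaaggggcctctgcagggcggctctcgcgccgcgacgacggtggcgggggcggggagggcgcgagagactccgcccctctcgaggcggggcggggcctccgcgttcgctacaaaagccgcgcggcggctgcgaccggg
BNIP3: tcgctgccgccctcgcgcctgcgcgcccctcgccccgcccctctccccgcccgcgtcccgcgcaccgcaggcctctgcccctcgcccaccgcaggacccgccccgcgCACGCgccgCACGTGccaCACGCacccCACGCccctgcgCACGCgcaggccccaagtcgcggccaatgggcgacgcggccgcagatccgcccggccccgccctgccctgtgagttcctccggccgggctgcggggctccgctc
WIPI1: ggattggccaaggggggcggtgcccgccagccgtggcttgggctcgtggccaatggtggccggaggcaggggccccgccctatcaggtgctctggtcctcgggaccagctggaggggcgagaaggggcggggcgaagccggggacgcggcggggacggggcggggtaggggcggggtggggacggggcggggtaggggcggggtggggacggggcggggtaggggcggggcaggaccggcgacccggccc
GABARAPL1: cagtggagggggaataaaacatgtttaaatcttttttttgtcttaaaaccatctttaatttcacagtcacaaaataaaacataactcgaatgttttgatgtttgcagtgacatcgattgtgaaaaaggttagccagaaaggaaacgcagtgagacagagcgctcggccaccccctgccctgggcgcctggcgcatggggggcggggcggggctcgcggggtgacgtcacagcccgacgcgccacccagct
ATG14: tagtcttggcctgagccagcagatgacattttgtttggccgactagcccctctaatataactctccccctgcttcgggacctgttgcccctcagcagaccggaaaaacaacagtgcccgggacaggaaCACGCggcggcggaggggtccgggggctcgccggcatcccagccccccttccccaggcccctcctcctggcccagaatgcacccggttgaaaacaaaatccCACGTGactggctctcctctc

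None of these motifs was found in the windows of SQSTM1, WIPI1 or GABARAPL1. The BNIP3 window held CACGTG 134 bases before the start site and 6 matches to the hypoxia core between 143 and 104 bases before it, a number that 0.923% of the 35116 windows in the table reached or exceeded. It was 1 of 2 members that reached this number. The other was ATG3, whose window held 7 matches to the hypoxia core and which did not pass the expression test (log2 fold change 0.24, adjusted p = 0.255). The ATG14 window held CACGTG 21 bases before the start. Across the members, CACGTG was present in 3 of 41 (ATG3, ATG14 and BNIP3), beside 7.26% of all windows, TCACGTGA in 1 (ATG3), beside 0.980%, and TGACNNNGC in 4 (MAP1LC3B, ATG101, CALCOCO2 and TECPR1), beside 13.3%. The hypoxia core was in 30 of 41 members, beside 48.4% of all windows, with 11 of the 18 rising members and 19 of the other 23. TGTTTAC was in CALCOCO2 and WDR45 (2 of 41), beside 3.42%. For every motif, a member with several windows counted if any of them matched. The percentages are per window, so the member counts and the percentages are not the same measure. A match is a run of letters and not a measured site, and its absence says only that these letters are not in the window.

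Among the 5 soluble cargo receptors, SQSTM1 and OPTN rose and CALCOCO2 fell. SQSTM1 (p62), which binds ubiquitinated cargo and also holds KEAP1, the inhibitor of NRF2, lies at chr5:179806398-179838078 on the plus strand (GRCh38). It had 234, 205 and 229 FPKM in PD samples 1 to 3, against 60.2, 53.3 and 57.7 FPKM in DMSO samples 1 to 3. The groups were far apart, and the samples within each group lay close together. The mean was 222 ± 15.8 FPKM in PD and 57.0 ± 3.50 FPKM in DMSO (SD, n = 3 each), a ratio of 3.90, with a log2 fold change of 1.94 ± 0.10 (SE; adjusted p = 5.72e-05), the largest of the 49. OPTN, a receptor for damaged mitochondria and bacteria, rose by a log2 fold change of 0.37 ± 0.08 (adjusted p = 0.0142), with 59.1 to 62.2 FPKM in PD and 44.7 to 47.6 FPKM in DMSO. CALCOCO2 (NDP52), which recognises bacteria and mitochondria, fell by 0.29 ± 0.09 on the log2 scale (adjusted p = 0.0463), with 7.82 to 8.98 FPKM in PD and 9.99 to 10.8 FPKM in DMSO. The OPTN call was lost without PD replicate 2 or DMSO replicate 2 (adjusted p = 0.0534 and 0.0708) and with equal totals (0.0594), and the CALCOCO2 call was lost without any one of PD replicates 1, 2 and 3 and DMSO replicates 2 and 3 (adjusted p from 0.0758 to 0.146). NBR1, a p62-like receptor of aggregates, had 0.20 and TAX1BP1, which clears aggregates and bacteria, 0.33 as log2 fold changes (adjusted p = 0.158 and 0.112), and neither passed.

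The share of each receptor in the summed FPKM of the 5 was set side by side in the groups. SQSTM1 made up 70.7%, 67.2% and 67.9% of the sum in PD samples 1 to 3, against 40.8%, 39.7% and 40.5% in DMSO samples 1 to 3. Every PD sample was above every DMSO sample, with a difference of 28.3 percentage points between the means. The exact two-sided permutation test gave p = 0.1, the smallest that 3 samples against 3 allow, and 0.17 adjusted over the 17 shares and ratios compared in this way. The sum itself was 324 ± 17.3 FPKM in PD and 141 ± 6.69 FPKM in DMSO (SD, n = 3 each). OPTN accounted for 18.6% ± 0.792 in PD and 32.9% ± 0.812 in DMSO, although its own level was higher in PD, and NBR1, CALCOCO2 and TAX1BP1 were each at a lower share in every PD sample than in any DMSO sample (6.14%, 2.61% and 4.06% on average in PD, against 12.1%, 7.45% and 7.24% in DMSO).

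**Figure D3:**
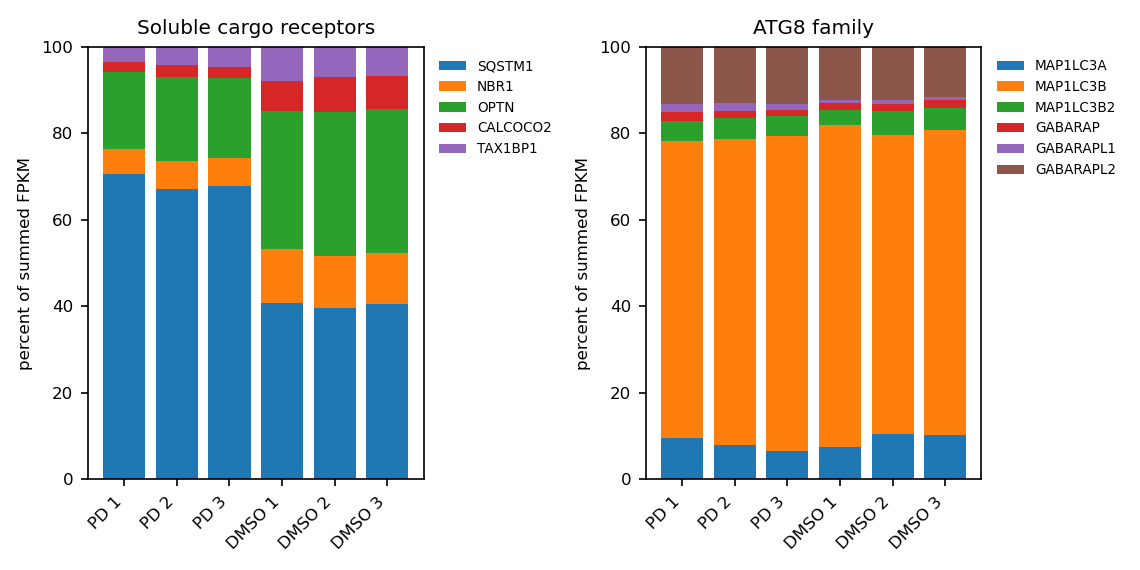
Share of the summed FPKM (y axis, percent) taken by each of the 5 cargo receptors and each of the 6 ATG8 genes in every sample, with PD samples left of DMSO samples. SQSTM1 held 67.2% to 70.7% of the receptor sum in PD samples and 39.7% to 40.8% in DMSO samples, while MAP1LC3B held most of the ATG8 sum in both groups.

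Exons of SQSTM1 overlap those of MRNIP, a DNA repair gene on the opposite strand, over 20.7% of SQSTM1's exon length. The libraries came from a stranded kit per the labels, but the sources used here do not say whether reads were assigned by strand. MRNIP had 12.7 FPKM in PD and 4.73 FPKM in DMSO, which is 1643 and 673 reads per sample on average. SQSTM1 itself had 27547, 24044 and 26223 reads in PD samples and 7072, 6951 and 7799 reads in DMSO samples, and the MRNIP reads were 9.26% of the SQSTM1 reads in DMSO. Among the 49 members, 24 share exon bases with a gene on the opposite strand. For ATG10, BECN1, ATG7 and ATG4B, that gene (RPS23, PSME3, VGLL4 and THAP4) had more reads than the member in DMSO (1180%, 841%, 568% and 110% of them). The overlaps covered 6.86%, 4.68%, 18.1% and 3.57% of the members' exon length. AP3S1, which overlaps 4.25% of ATG12, had 68.7% of its reads, with 32.8 FPKM in PD and 21.5 FPKM in DMSO. The part of these genes in the members' values was not tested.

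The 3 receptors anchored in the outer mitochondrial membrane behaved unequally, with BNIP3 and BNIP3L higher in PD. BNIP3, a target of hypoxia signalling that recruits LC3 to mitochondria, lies at chr10:131966455-131982013 on the minus strand. BNIP3 had 5.34, 7.12 and 4.46 FPKM in PD samples 1 to 3, against 1.27, 1.61 and 1.47 FPKM in DMSO samples 1 to 3, from 437, 582 and 356 reads and from 104, 146 and 138 reads. The PD samples were spread more widely than the DMSO samples, and the lowest of them was still well above the highest DMSO sample. The ratio of the means was 3.89 and the log2 fold change 1.42 ± 0.16 (adjusted p = 0.00121). BNIP3L (NIX), which removes mitochondria during red cell maturation, had 13.5, 13.3 and 16.1 FPKM in PD, against 10.8, 8.93 and 9.26 FPKM in DMSO. Its groups did not overlap and its log2 fold change was 0.52 ± 0.11 (adjusted p = 0.0139), a call lost without DMSO replicate 2 or 3 (0.0544 and 0.052). FUNDC1, the third of these receptors, averaged 8.91 ± 0.877 FPKM in PD and 10.7 ± 1.16 FPKM in DMSO (SD, n = 3 each) and did not pass (log2 fold change -0.24, adjusted p = 0.142). The log2 ratio of BNIP3 to BNIP3L was -1.36 ± 0.473 in PD and -2.74 ± 0.315 in DMSO (SD, n = 3 each), higher in 3 of 3 PD samples than in any DMSO sample (exact permutation p = 0.1, adjusted 0.17). BNIP3 has many processed pseudogenes. The most abundant, BNIP3P11, had 6.40 FPKM in PD and 6.61 FPKM in DMSO, and 4.18% of the 100-base windows of the longest BNIP3 transcript were also found in BNIP3P1, which had no reads.

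All 6 ATG8 genes rose, and none of their groups overlapped. MAP1LC3B, which encodes the LC3B protein used to mark autophagosomes, was the most abundant of them, and in DMSO the most abundant of the 49 members. It had 173, 179 and 231 FPKM in PD samples 1 to 3, against 133, 109.6 and 120.4 FPKM in DMSO samples 1 to 3. The third PD sample was the highest, and the others still exceeded every DMSO sample. Its log2 fold change was 0.67 ± 0.14 (adjusted p = 0.0123). In PD, SQSTM1 and MAP1LC3B headed the members by level, and their PD samples overlapped. GABARAPL1, at chr12:10212458-10223130 on the plus strand and long known as a gene induced by FOXO factors in starved muscle, had 4.41, 4.32 and 4.21 FPKM in PD samples 1 to 3, against 1.18, 1.33 and 1.23 FPKM in DMSO samples 1 to 3. Both groups were tight and far apart. The log2 fold change was 1.24 ± 0.09 and the ratio of means 3.45 (adjusted p = 0.000296), resting on 277, 271 and 258 reads in PD and 74, 93 and 89 reads in DMSO.

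GABARAPL2 (GATE-16), which also acts in Golgi transport, was at 32.9 to 41.7 FPKM in PD and 19.5 to 22.2 FPKM in DMSO (log2 fold change 0.78 ± 0.12, adjusted p = 0.0038). GABARAP, the founding member of its branch, was at 4.25 to 5.34 FPKM in PD and 2.54 to 2.85 FPKM in DMSO (0.65 ± 0.10, adjusted p = 0.00482). GABARAP shares 38.6% of its 100-base transcript windows with a readthrough locus, AC120057.2, that was listed at 0, and 25.2% of its exon length with AC120057.3 on the opposite strand, which had 3.22 FPKM in PD and 0.399 FPKM in DMSO. That locus averaged 79.3 reads in PD and 11 reads in DMSO, beside 186, 148 and 163 reads for GABARAP in PD and 92, 98 and 114 in DMSO, and its part in the GABARAP value was not tested. MAP1LC3B2, a retrogene copy of MAP1LC3B, rose by 0.62 on the log2 scale (adjusted p = 0.0159), and 4.79% of the transcript windows of MAP1LC3B are also found in it, so reads of the pair may have been split; its call was lost with no filter on low values (0.0503). MAP1LC3A had 0.43 (adjusted p = 0.0372), a call lost when any 1 of the 6 samples was left out (adjusted p from 0.0555 to 0.113) and with equal totals (0.152).

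The summed FPKM of the 6 ATG8 genes was 274 ± 37.2 in PD and 170 ± 10.5 in DMSO (SD, n = 3 each). MAP1LC3B made up 70.8% ± 2.17 of it in PD and 71.3% ± 2.69 in DMSO, and these shares overlapped. GABARAPL1 made up 1.60% ± 0.232 in PD and 0.741% ± 0.0937 in DMSO, and GABARAPL2 13.1% ± 0.0904 in PD and 12.1% ± 0.405 in DMSO, each higher in 3 of 3 PD samples than in any DMSO sample (exact permutation p = 0.1, adjusted 0.17, for both). The shares of MAP1LC3A, MAP1LC3B2 and GABARAP overlapped between the groups. The log2 ratio of GABARAPL1 to its paralogue GABARAPL2 was -3.05 ± 0.223 in PD and -4.04 ± 0.186 in DMSO, which is 0.99 higher in PD (exact permutation p = 0.1, adjusted 0.17).

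**Figure D4:**
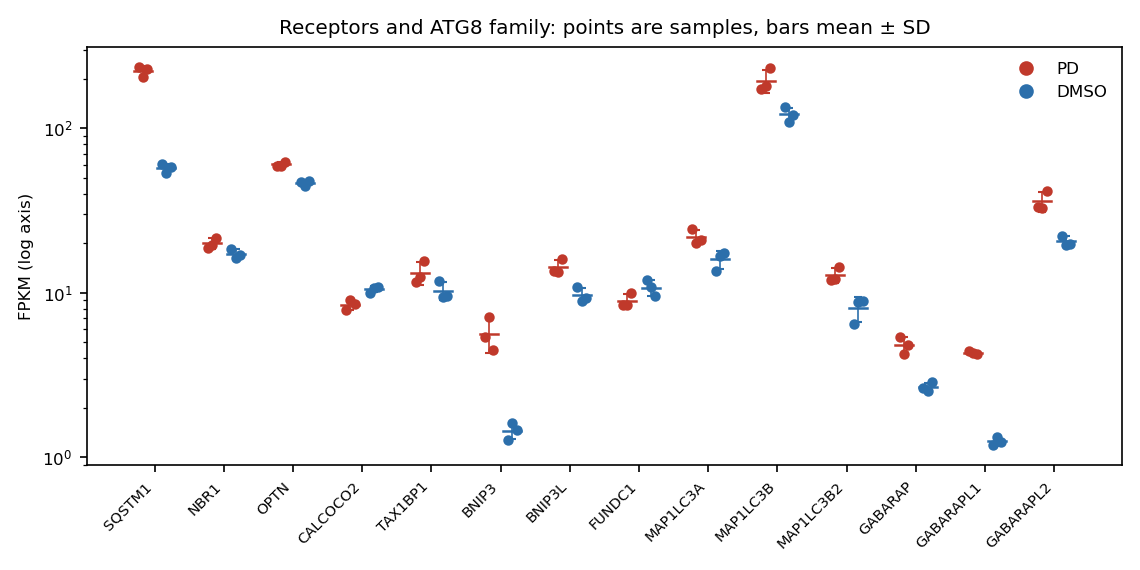
FPKM (y axis, log scale) of the 5 cargo receptors, the 3 mitophagy receptors and the 6 ATG8 genes, with one point per sample, horizontal lines for the group means and whiskers for 1 SD (n = 3 each), PD left of DMSO. SQSTM1, BNIP3 and GABARAPL1 show the widest gaps, CALCOCO2 lies lower in PD, and TAX1BP1 and FUNDC1 overlap.

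In the ULK complex, which starts autophagosome formation, RB1CC1 rose and the other 4 members did not pass. RB1CC1 (FIP200), the scaffold of the complex, had 30.0, 33.9 and 41.2 FPKM in PD samples 1 to 3, against 23.2, 16.2 and 15.2 FPKM in DMSO samples 1 to 3. DMSO sample 1 was the highest of its group and lay below every PD sample. The log2 fold change was 0.92 ± 0.18 (adjusted p = 0.0101), and RB1CC1 was both the most abundant and the most changed member of the complex. The kinase genes ULK1 and ULK2 were at 0.39 and -0.03 on the log2 scale (adjusted p = 0.18 and 0.834), with 95% intervals of -0.07 to 0.85 and -0.23 to 0.18. The regulatory subunits ATG13 and ATG101 had 0.25 and 0.30 (adjusted p = 0.0535 and 0.337). ULK1 overlapped between groups, with 8.18, 6.62 and 5.68 FPKM in PD and 3.47, 5.50 and 6.13 FPKM in DMSO, and the log2 ratio of ULK1 to ULK2 did as well (0.19 in PD and -0.31 in DMSO, exact permutation p = 0.3).

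Of the 6 genes of the class III PI3-kinase complexes, 4 rose. PIK3R4 (VPS15), the regulatory subunit that all these complexes contain, had 17.1, 19.0 and 20.5 FPKM in PD samples 1 to 3, against 11.5, 9.66 and 9.72 FPKM in DMSO samples 1 to 3. The groups were well separated, and the log2 fold change was 0.81 ± 0.11 (adjusted p = 0.00228). The catalytic subunit PIK3C3 (VPS34), the autophagy-specific subunit ATG14 and the endosomal subunit UVRAG rose by 0.45, 0.48 and 0.42 on the log2 scale (adjusted p = 0.0145, 0.00932 and 0.0179). PIK3C3 missed the threshold without PD replicate 2 or DMSO replicate 2 (adjusted p = 0.0578 and 0.0562), and UVRAG without PD replicate 1 or DMSO replicate 2 or 3 (0.0509, 0.0742 and 0.0627). BECN1, the shared core subunit, averaged 4.84 ± 0.385 FPKM in PD and 4.17 ± 0.202 FPKM in DMSO (SD, n = 3 each; log2 fold change 0.17, adjusted p = 0.203). AMBRA1, a BECN1-binding regulator, was at 0.04 (adjusted p = 0.796), with an interval of -0.18 to 0.26, and was negative with equal totals.

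Readers of PI3P split between WIPI1 and its relatives. WIPI1, at chr17:68420948-68457513 on the minus strand, had 9.15, 9.26 and 9.47 FPKM in PD samples 1 to 3, against 2.74, 3.43 and 3.66 FPKM in DMSO samples 1 to 3. The PD samples lay within a narrow band far above the DMSO samples. The ratio of means was 2.84 and the log2 fold change 1.27 ± 0.11 (adjusted p = 0.000417). WIPI2, which brings ATG16L1 to the membrane, had 0.23 (adjusted p = 0.145), and WDR45 (WIPI4), which binds ATG2, had -0.04 (0.746). WDR45B (WIPI3) was the most abundant of the group and overlapped, with 44.4, 42.0 and 48.3 FPKM in PD and 43.1, 44.1 and 48.7 FPKM in DMSO (log2 fold change -0.01, interval -0.23 to 0.21, adjusted p = 0.932). The log2 ratio of WIPI1 to WIPI2 was 0.46 ± 0.112 in PD and -0.78 ± 0.0425 in DMSO (SD, n = 3 each; exact permutation p = 0.1, adjusted 0.17). By FPKM, WIPI1 was thus the more abundant of the pair in all PD samples and the less abundant in all DMSO samples. From reads not divided by length, the mean ratio was -0.94 in PD and -2.18 in DMSO, so which of the pair is more abundant in PD depends on the lengths used. ZFYVE1 (DFCP1), a PI3P-binding protein that marks the sites where autophagosomes form, rose by 0.59 ± 0.08 (adjusted p = 0.00277). Exons of WIPI1 overlap those of ARSG on the opposite strand over 24.3% of their length, and ARSG had 0.640 FPKM in PD and 0.949 FPKM in DMSO. ARSG averaged 64.3 reads in PD and 105 reads in DMSO, which was 56.2% of the WIPI1 reads in DMSO. Its part in the WIPI1 value was not tested.

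Of the 5 lipid transfer and scrambling genes, TMEM41B rose and the other 4 did not pass. TMEM41B, a scramblase of the endoplasmic reticulum, had 99.1, 119.9 and 129.7 FPKM in PD samples 1 to 3, against 67.8, 56.2 and 55.5 FPKM in DMSO samples 1 to 3. Every PD sample exceeded every DMSO sample, and the log2 fold change was 0.94 ± 0.13 (adjusted p = 0.0029). VMP1, its partner scramblase, had 39.2, 44.9 and 49.9 FPKM in PD and 37.2, 34.3 and 33.7 FPKM in DMSO. The VMP1 groups did not overlap, but the log2 fold change of 0.33 did not pass (adjusted p = 0.056). VMP1 passed under 6 of the 17 alternatives, among them voom (0.0299), the GC correction (0.00394) and the fit without PD replicate 1 (0.0417). The lipid transfer proteins ATG2A and ATG2B and the membrane-spanning scramblase ATG9A had 0.15, 0.10 and 0.15 (adjusted p = 0.259, 0.507 and 0.199), and ATG2B and ATG9A were slightly negative with equal totals. ATG9A shares 44.1% of its transcript windows with AC068946.2, a neighbouring readthrough locus.

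ATG4B, the main protease that trims ATG8 proteins, rose by a log2 fold change of 0.58 ± 0.10 (adjusted p = 0.00626), with 14.8, 14.9 and 12.9 FPKM in PD samples 1 to 3, against 8.55, 8.97 and 10.0 FPKM in DMSO samples 1 to 3. These groups did not overlap. ATG4D was the most abundant of the 4 proteases by its mean over all samples, with 17.7, 14.8 and 11.7 FPKM in PD and 10.7, 14.2 and 14.1 FPKM in DMSO. The ATG4D groups overlapped throughout (log2 fold change 0.16, adjusted p = 0.513). ATG4A had 0.19 and ATG4C -0.42 (adjusted p = 0.456 and 0.0882), and ATG4C averaged 3.42 ± 0.865 FPKM in PD and 4.86 ± 0.693 FPKM in DMSO (SD, n = 3 each). ATG4C was called lower in PD under 6 of the 16 alternatives that tested it, including equal totals (0.0228), voom (0.0493) and the fit without PD replicate 3 (0.0219).

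In the conjugation machinery, which couples ATG8 proteins to lipid, ATG12 and ATG16L1 rose and 4 genes did not pass. ATG12, a ubiquitin-like protein joined to ATG5, had 16.5, 20.4 and 23.2 FPKM in PD samples 1 to 3, against 14.3, 9.67 and 10.0 FPKM in DMSO samples 1 to 3. DMSO sample 1 came close to the lowest PD sample without reaching it. Its log2 fold change was 0.78 ± 0.17 (adjusted p = 0.0168), a call lost without PD replicate 2 or DMSO replicate 2 or 3 (0.0603, 0.0542 and 0.0561). ATG16L1, which places the conjugation complex on the membrane, was at 6.76 to 6.86 FPKM in PD and 4.96 to 5.39 FPKM in DMSO (0.34 ± 0.08, adjusted p = 0.0189), and missed the threshold without PD replicate 1 or 2 or DMSO replicate 2 or 3 (0.0586, 0.0697, 0.0748 and 0.0547) and with equal totals (0.104). The E1-like enzyme ATG7, the E2-like enzymes ATG3 and ATG10 and the ATG12 partner ATG5 had log2 fold changes of -0.07, 0.24, -0.17 and 0.12, with adjusted p from 0.255 to 0.69. ATG5 turned negative with equal totals.

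Fusion genes moved in opposite directions. EPG5, a tether that links autophagosomes to late endosomes and lysosomes, had 9.72, 10.8 and 9.98 FPKM in PD samples 1 to 3, against 5.49, 5.43 and 5.30 FPKM in DMSO samples 1 to 3. The groups were tight and separate, and the log2 fold change was 0.80 ± 0.08 (adjusted p = 0.000926). PLEKHM1, an adaptor between RAB7, LC3 and the HOPS tethering complex, rose by 0.58 ± 0.10 (adjusted p = 0.00596). The pseudogene PLEKHM1P1 shares 13.8% of the transcript windows of PLEKHM1 and was also higher in PD. PLEKHM1P1 averaged 3.999 FPKM in PD and 2.54 FPKM in DMSO, beside 4.13 and 2.42 FPKM for PLEKHM1. The part of PLEKHM1P1 in the PLEKHM1 value was not tested. STX17, the SNARE protein that autophagosomes carry to fuse with lysosomes, had 2.99, 3.63 and 3.39 FPKM in PD samples 1 to 3, against 5.82, 4.86 and 4.70 FPKM in DMSO samples 1 to 3. The highest PD sample was below the lowest DMSO sample, and STX17 fell by 0.50 ± 0.11 on the log2 scale (adjusted p = 0.0161), a call lost without PD replicate 1 (0.0536). STX17 and CALCOCO2 were described in full because they were the only members that fell, a choice made after their values were seen. TECPR1, a tether of autophagosomes and lysosomes, averaged 2.52 ± 0.183 FPKM in PD and 2.80 ± 0.0494 FPKM in DMSO (SD, n = 3 each) without overlap and did not pass (log2 fold change -0.11, adjusted p = 0.426).

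**Figure D5:**
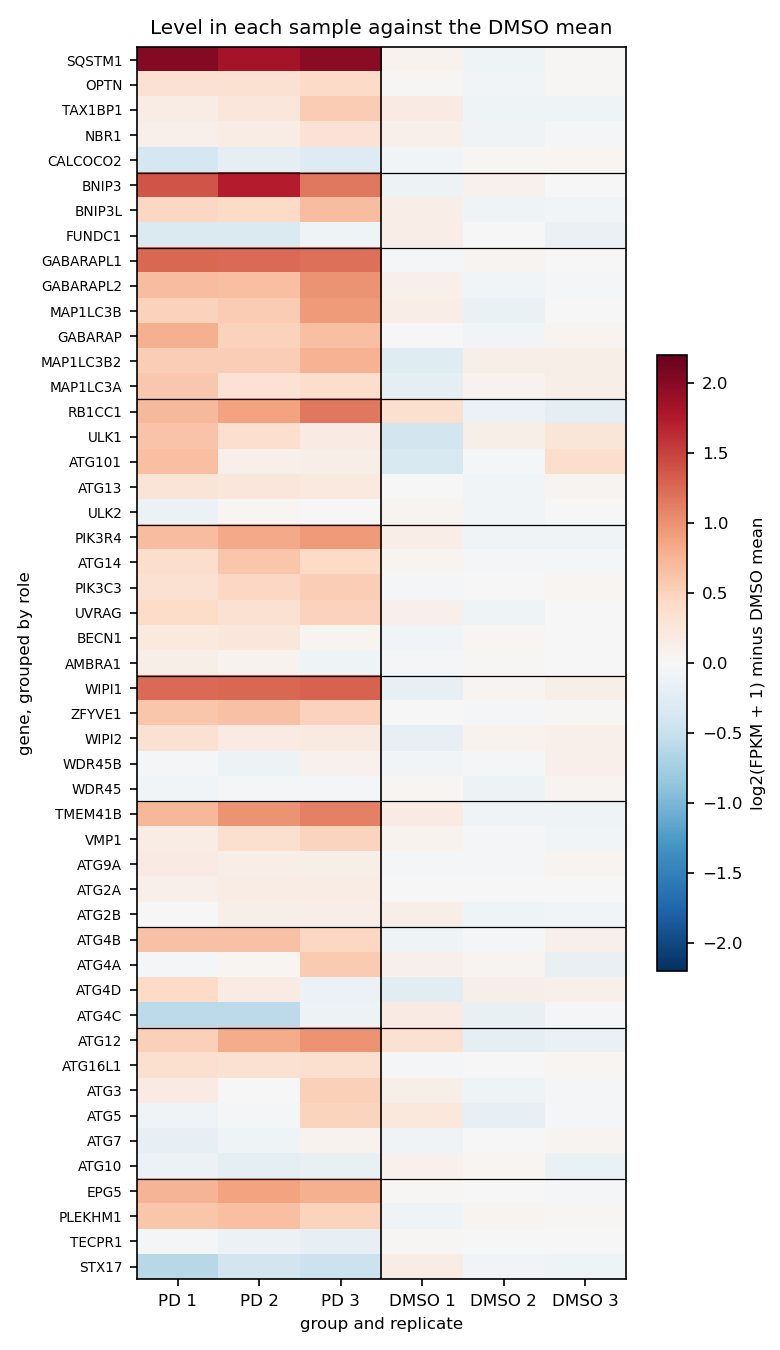
Log2(FPKM + 1) of each of the 49 autophagy genes in each sample, relative to the mean of that gene's DMSO samples, with genes ordered by role and PD samples left of DMSO samples. The 6 ATG8 genes are raised in all PD samples, and DMSO sample 1 and PD sample 3 differ from the other samples of their groups in many rows.

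DMSO sample 1 and PD sample 3 stood apart from their groups along the second principal component, which held 18.9% of the variance beside 59.5% for the first, which separated PD from DMSO. In these 2 samples, genes of low GC content tended to be higher than in the rest of their group (Spearman's rho across genes between the deviation and GC of -0.637 and -0.524). PD sample 1 deviated in the opposite sense (0.606) and PD sample 2 hardly at all (0.021), so the PD samples formed a gradient. DMSO samples 2 and 3 were at 0.462 and 0.535. Among the 25 members at or below the members' median GC of 47.8%, DMSO sample 1 was the highest DMSO sample for 20 and PD sample 3 the highest PD sample for 17. Among the 24 members above it, DMSO sample 1 was the lowest for 16, while PD sample 3 was the lowest for 10 and the highest for 9. Of the rising members, 12 were in the group of lower GC and 11 in the group of higher GC. With both samples left out, 24 members rose and 3 fell, and 22 of the 23 were among them.

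Other genes of the pathway, taken from 5 lists of 86 genes in all, gave 16 that rose and 9 that fell among 76 tested, with a median log2 fold change of 0.05. These are 21.1% and 11.8% of the genes tested in the lists, against 14.3% and 12.7% of all genes. The share that fell was near the background and includes DDIT4, SESN1 and RPTOR, which were added after their values were seen. Together 25 passed, but 16 without PD replicate 2 or without DMSO replicate 3. The machinery for fusion with lysosomes was the list with the most rising genes, 7 of 15 tested (46.7%), with 0 that fell. RAB7A, the small GTPase that marks late endosomes and autophagosomes ready to fuse, averaged 339 ± 35.4 FPKM in PD and 170.2 ± 6.29 FPKM in DMSO (SD, n = 3 each; log2 fold change 0.99 ± 0.10, adjusted p = 0.00102). VPS18 and VPS41, subunits of the HOPS tethering complex, were at 29.3 ± 1.69 and 19.9 ± 1.90 FPKM in PD, against 14.8 ± 1.42 and 10.4 ± 1.52 FPKM in DMSO (adjusted p = 0.000962 and 0.00284).

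Among 14 other cargo receptors tested, 2 rose and 2 fell, which is 14.3% in each direction and near the shares of all genes. TOLLIP, which clears aggregates, averaged 21.8 ± 3.14 FPKM in PD and 12.0 ± 0.360 FPKM in DMSO (SD, n = 3 each; adjusted p = 0.00283). The mitochondrial proteins NIPSNAP1 and BCL2L13 fell by 0.37 and 0.28 on the log2 scale (adjusted p = 0.016 and 0.0346), calls that were lost without any one of PD replicates 1 and 2 and DMSO replicates 2 and 3 (adjusted p from 0.0503 to 0.0717 for NIPSNAP1 and from 0.0907 to 0.127 for BCL2L13) and, for BCL2L13, also without PD replicate 3 or DMSO replicate 1 (0.0529 and 0.0637). NCOA4, the ferritin receptor and the most abundant gene of the list, had a log2 fold change of 0.29 and did not pass (adjusted p = 0.154). Of 19 tested kinases and regulators upstream of ULK, 3 rose and 4 fell (15.8% and 21.1%, against 14.3% and 12.7% of all genes). DDIT4, SESN1 and RPTOR, which fell, were added to this list after their values were seen, as was TSC2, which did not pass. The share that fell is therefore no result about the list. TSC1, which restrains the growth kinase complex mTORC1, averaged 10.5 ± 1.05 FPKM in PD and 5.07 ± 0.0853 FPKM in DMSO (log2 fold change 0.92, adjusted p = 0.000974), and AKT1S1, an mTORC1 inhibitor subunit, rose by 0.81 (adjusted p = 0.0101). MLST8, a core subunit of mTORC1, fell by 0.67 (adjusted p = 0.0237), a call lost without PD replicate 2 or DMSO replicate 2 or 3 (0.0862, 0.0724 and 0.0697). DDIT4, SESN1 and RPTOR fell by 0.84, 0.48 and 0.43 (adjusted p = 0.0303, 0.0304 and 0.0399), with DDIT4 falling most in the list. The calls of DDIT4, SESN1 and RPTOR were each lost without PD replicate 1 or 2 or DMSO replicate 3 (adjusted p from 0.0584 to 0.127). SESN2, a leucine sensor and the most abundant gene of that list, was at 114 FPKM in both groups (log2 fold change 0.01, adjusted p = 0.976).

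Accessory regulators had 3 rising and 2 falling genes of 16 tested (18.8% and 12.5%, against 14.3% and 12.7% of all genes). TP53INP2 (DOR), which binds LC3 and VMP1, averaged 22.6 ± 2.06 FPKM in PD and 9.67 ± 0.497 FPKM in DMSO (SD, n = 3 each; log2 fold change 1.14 ± 0.10, adjusted p = 0.000431). BCL2L1 (BCL-XL) and MCL1, which both bind BECN1 besides blocking cell death, moved apart. BCL2L1 was at 15.6 ± 0.536 FPKM in PD and 27.9 ± 1.64 FPKM in DMSO (-0.80, adjusted p = 0.000985), and MCL1 at 163 ± 14.3 FPKM in PD and 82.9 ± 7.19 FPKM in DMSO (0.97, adjusted p = 0.00121). Of 12 tested transcription factors that are known to drive or repress autophagy genes, DDIT3 (CHOP) rose and MITF fell (1 gene each, or 8.33% in each direction). DDIT3 averaged 209 ± 10.5 FPKM in PD and 141 ± 4.16 FPKM in DMSO (adjusted p = 0.00401), and MITF 0.582 ± 0.0252 FPKM in PD and 1.74 ± 0.257 FPKM in DMSO (adjusted p = 0.00488). MITF was below 1 FPKM in every PD sample and passed the filter on low values only through its DMSO samples, so it could be counted in this list only as lower in PD, and 12 of the 17 alternatives tested it. TFEB and TFE3, the main activators of lysosome and autophagy genes, were at 0.06 and -0.01 on the log2 scale (adjusted p = 0.774 and 0.947), and NFE2L2, which encodes NRF2, HIF1A and ATF4 had 0.22, 0.14 and -0.17 (0.286, 0.577 and 0.25). ATF4 was called lower in PD with equal totals (-0.33, adjusted p = 0.0397), quantile scaling (-0.52, 0.00791) and sample weights (-0.26, 0.0241). RNA levels do not show the activity or location of these proteins.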

How the data were processed

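RNA of AZ-521 cells (3 PD and 3 DMSO samples) had been sequenced as pairs from stranded mRNA libraries, per the labels' protocols. The authors deposited FPKM values per gene with gene lengths. Not given in the sources used here are the aligner, the counter and its strand setting. Per the submitters' processing notes, the builds were GRCm38 and mm10, both of mouse, but all 58735 gene identifiers are those of human GENCODE release 29 (GRCh38). The prefix of a column gave its group, and its number was matched to the one ending each title. FPKM times gene length was a whole multiple of 1 step per sample for 100% of values (tolerance 0.01), which gave reads summing to between 14915538 and 16341687 per sample. The FPKM denominators were 0.947 to 1.00 times these sums in PD and 1.03 to 1.10 times in DMSO.

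Genes at 1 FPKM or more in at least 3 samples (13579) were tested with limma 3.58.1 in R 4.3.3 on log2(FPKM + 1), with a trend of the variance on level. On simulated data this fit found nearly all large changes but missed most small ones. Its share of false calls there was above the threshold set for the adjusted p. Voom on the recovered reads missed fewer small changes and made a smaller share of false calls. Members that did not pass are therefore not shown to be unchanged. Shares and ratios were tested with exact two-sided permutation tests (scipy 1.17.1). Full values are given for members past the threshold with at least a 2-fold change. They are also given for the most abundant and the most changed member of each role. Of each other pathway list, values are given for up to 3 genes with the smallest adjusted p and the most abundant one. In the list upstream of ULK, DDIT4, SESN1, RPTOR and TSC2 were added after their values were seen, and values of those that fell are given as well. Alternatives were another pseudocount, filters, scalings, voom on the recovered reads, sample weights, a replicate block, samples left out and a GC correction. The members and lists were chosen with earlier results of these data known.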

Additional observations from a re-analysis of the deposited data

How the results depend on the processing

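Of the 23 rising members, 14 kept their call under every one of 17 alternatives that could test them (SQSTM1, BNIP3, WIPI1, GABARAPL1, GABARAPL2, GABARAP, MAP1LC3B, RB1CC1, PIK3R4, ZFYVE1, TMEM41B, ATG4B, EPG5 and PLEKHM1), and 0 of the 2 falling ones did. The cause of each change was not tested. Over single samples left out, 17 to 24 members were called (16 to 22 rising, 0 to 2 falling), with 1917 to 3367 of all genes and 16 to 26 other pathway genes. Without a filter or with a minimum mean of 5 FPKM 1 member fell, and with that minimum 2214 genes were called. With equal totals, sample weights or the GC correction (chosen after seeing the data), 4 members fell. Sample weights gave 6301 genes and 42 other pathway genes. A criterion of at least 2-fold left 4 members. Besides VMP1, ATG4C and ATF4, FUNDC1 and NCOA4 passed under 3 alternatives each, NBR1, TAX1BP1, ATG13 and NFE2L2 each under 2, and ULK1 under 1. The low read counts of GABARAP, GABARAPL1, BNIP3 and WIPI1 in DMSO limit the precision of their values.

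Whether the replicate numbers pair the samples is not known. Same-numbered samples had deviations from their group means correlated at -0.388, 0.168 and -0.163. These values cannot decide it, because the deviations cancel out within a group and varied with GC content. With a replicate block, 1844 genes, 15 members (15 rising and 0 falling) and 12 other pathway genes were called, and all 15 were among the 23.

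Signs changed for log2 fold changes near 0. With equal totals, ATG9A was at -0.0024, ATG5 at -0.028, AMBRA1 at -0.1039, ATG2B at -0.0405, SESN2 at -0.1555, HIF1A at -0.0219 and TFEB at -0.047. With sample weights SESN2 was at -0.0621, TFEB at -0.0119 and ULK2 at 0.0295. SESN2 was at -0.1237 with quantile scaling and AMBRA1 at -0.0034 with the GC correction, which gave SESN2 -0.0449. With both DMSO replicate 1 and PD replicate 3 left out, SESN2 was at -0.0698 and the log2 ratio of ATG2A to ATG2B differed by -0.003977. With 1 sample left out, the log2 fold change ranged from -0.064 to 0.0875 for SESN2, -0.066 to 0.0389 for WDR45B, -0.0902 to 0.0426 for TFE3, -0.0676 to 0.2315 for ATG5, -0.0108 to 0.1076 for AMBRA1, -0.0663 to 0.0169 for ULK2 and -0.052 to 0.1343 for TFEB. The PD minus DMSO difference ranged from -1.705 to 0.8984 percentage points for the MAP1LC3B share, from -0.6971 to 0.2909 for the MAP1LC3B2 share and from -0.01866 to 0.1478 for the ATG2A to ATG2B log2 ratio.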
